A study of Mus musculus with 16 samples.

Results

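The transcripts of 10 autophagy genes (Becn1, Atg3, Atg5, Atg7, Atg12, Ulk1, Map1lc3a, Map1lc3b, Gabarap and Sqstm1) were followed in early thymocytes with and without PKBα (Akt1), a serine/threonine kinase downstream of PI3K. All probe sets annotated to these symbols were taken, which gave 28 of the 45101 probe sets and 10 of the 18194 named genes. Becn1 was singled out from the DN3 genotype contrast, so the DN3 genotype values of these genes are a description without a test, and the difference of genotype effects between the subsets is tested only for genes other than Becn1. DN3 cells are CD4- CD8- thymocytes with CD25 and without CD44, and ISP8 cells are immature thymocytes that carry CD8 before CD4. Both subsets were sorted from 4 littermate pairs on a C57Bl/6 backcross, each with a PKBα-/- mouse and a PKBα+/+ mouse of the same sex. This gave 4 arrays each of PKBα-/- ISP8, PKBα+/+ ISP8, PKBα-/- DN3 and PKBα+/+ DN3 cells. Pair 1 was 5 weeks old and female, pair 2 was 2 weeks old and male, and pairs 3 and 4 were 3 weeks old, male in pair 3 and female in pair 4. The PKBα-/- mice lacked PKBα in every tissue, so thymocytes and the surrounding stroma shared the deletion.

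Autophagy encloses cytoplasm in a double membrane and delivers it to the lysosome. The ULK1 kinase starts the membrane, and a lipid kinase complex built around VPS34 and Beclin 1 marks it with phosphatidylinositol 3-phosphate. A pair of ubiquitin-like conjugation reactions then attaches LC3 and GABARAP proteins to the membrane, where receptors such as p62 deliver cargo. PKB restrains the process by way of mTORC1, which inhibits ULK1, and can phosphorylate Beclin 1 itself. In T lineage cells autophagy is known for clearing mitochondria and endoplasmic reticulum.

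The deposited values were GC-RMA intensities on a linear scale, with a median per array of 55.1 to 70.5. For the deleted gene Akt1, ISP8 arrays gave 4.87 to 6.81 without PKBα and 1628 to 2211 with it, and DN3 arrays gave 2.01 to 27.3 without PKBα and 1198 to 2007 with it. Every array followed its genotype label. Cd8a read 5248 to 6356 in ISP8 cells against 16.4 to 318 in DN3 cells, and Il2ra, which encodes CD25, read 84.8 to 460 in ISP8 cells against 6899 to 10971 in DN3 cells. The subsets were sorted with separate antibody panels, and the array names number the ISP8 arrays ahead of the DN3 arrays, so sort, array order and subset cannot be told apart. Replicates were separate mice. The p-values, SEs and intervals rest on the spread between these few mice, which limma moderated toward that of probe sets of like brightness. The borrowed part outweighed the mice in the ISP8 genotype test (9.88 prior against 3 residual degrees of freedom). In sorted bulk samples, fewer cells of a type and less RNA per cell cannot be told apart.

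The 250 bases before the start are shown for the 4 genes with a probe set that fell in ISP8 cells and none that rose, for reference beside the stage results, and for Atg3, which had most E-boxes among the members. Capitals mark an E-box (CACGTG) or a GC box (GGGCGG, or CCGCCC on the other strand). The sequences are from RefSeq on build GRCm38.p6, 5′ to 3′ on the strand of the gene, and 7 of the 10 genes had an entry (Becn1, Atg12 and Map1lc3a had none).
Ulk1, initiating kinase, chr5:110810082-110810331, minus strand: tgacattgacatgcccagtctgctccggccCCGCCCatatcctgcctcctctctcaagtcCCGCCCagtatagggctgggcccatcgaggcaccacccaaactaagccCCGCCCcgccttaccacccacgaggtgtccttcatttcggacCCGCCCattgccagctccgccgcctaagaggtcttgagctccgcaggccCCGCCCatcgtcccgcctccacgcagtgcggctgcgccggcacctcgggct
Map1lc3b, ATG8 family, chr8:121590188-121590437, plus strand: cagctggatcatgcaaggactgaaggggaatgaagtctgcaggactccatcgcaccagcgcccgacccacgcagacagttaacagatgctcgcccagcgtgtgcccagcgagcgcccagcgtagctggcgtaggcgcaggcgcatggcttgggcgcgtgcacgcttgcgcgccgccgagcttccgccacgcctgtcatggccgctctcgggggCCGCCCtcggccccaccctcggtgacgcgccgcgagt
Gabarap, ATG8 family, chr11:69991120-69991369, plus strand: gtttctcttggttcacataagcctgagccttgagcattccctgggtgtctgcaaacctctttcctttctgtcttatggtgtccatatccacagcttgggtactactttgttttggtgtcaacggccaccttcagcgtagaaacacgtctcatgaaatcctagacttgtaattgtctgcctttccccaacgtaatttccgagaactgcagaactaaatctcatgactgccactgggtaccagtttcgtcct
Sqstm1, cargo receptor, chr11:50210821-50211070, minus strand: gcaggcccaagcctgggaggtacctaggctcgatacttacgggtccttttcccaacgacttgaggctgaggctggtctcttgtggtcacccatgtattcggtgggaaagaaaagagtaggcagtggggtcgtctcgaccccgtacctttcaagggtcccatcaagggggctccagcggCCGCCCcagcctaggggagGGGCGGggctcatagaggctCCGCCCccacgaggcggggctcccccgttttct
Atg3, conjugating enzyme, chr16:45158579-45158828, plus strand: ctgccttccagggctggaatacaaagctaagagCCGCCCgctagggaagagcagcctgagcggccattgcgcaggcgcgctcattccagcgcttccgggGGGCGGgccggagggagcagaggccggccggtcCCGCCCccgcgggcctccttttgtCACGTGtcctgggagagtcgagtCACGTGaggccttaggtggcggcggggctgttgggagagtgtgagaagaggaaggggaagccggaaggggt
The E-box stood in 6.02% of 32851 promoters of this length. It was found in Atg3 at 94 and 71 bases before the start, in Atg5 at 14 bases and in Atg7 at 132 bases. The start used for Atg7 (window chr6:114670846-114671095) lies inside the gene's interval, chr6:114643127-114860604. The Atg5 window (chr10:44268089-44268338) runs into the gene's interval, chr10:44268322-44364299, and its E-box lies in that overlap. The Ulk1 window also runs into the gene's interval, chr5:110784489-110810120. A GC box stood in 32.7% of the promoters. Ulk1 held 5 copies, Sqstm1 and Atg3 held 3 each, Map1lc3b and Atg5 held 1 each, and Gabarap and Atg7 held none. The palindromic form of the lysosomal CLEAR sequence, which contains the E-box, stood in 0.24% of the promoters, and the FOXO sequence GTAAACA or TGTTTAC in 3.17%. Neither was found in the members' windows. These matches are descriptions of letters, and no binding was measured.

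Becn1 encodes Beclin 1 and lies on chr11:101288258-101302286 (GRCm38.p6). It was read by 5 probe sets that did not move together: over the 16 arrays their values correlated with each other between r = -0.20 and r = 0.52 (Pearson, a description across arrays of 4 groups). The design of the array gives the ending x_at to probe sets whose probes can also match other transcripts, and s_at to those shared between transcripts.

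Probe set 1435219_x_at was the one that put Becn1 in view. It read 57.8, 39.4, 99.8 and 119 in the PKBα-/- DN3 arrays of pairs 1 to 4, against 359, 363, 273 and 258 in the PKBα+/+ DN3 arrays. Every PKBα-/- array lay below every PKBα+/+ array, in all 4 pairs, and the mean was 79.0 ± 36.7 in PKBα-/- cells against 313 ± 55.4 in PKBα+/+ cells (SD, n = 4 each). The mean log2 difference was -2.10, or 0.233-fold. Without pair 2 it was -1.73 and without pair 4 it was -2.43. Of the 33962 probe sets in the DN3 comparison, 1.06% were lower in PKBα-/- cells without overlap, and of the 28 autophagy probe sets 1 was; nothing is read from this, because the contrast chose Becn1.

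Of the other Becn1 probe sets, 1430358_at was lower in PKBα-/- DN3 cells in every pair and the rest were not. Probe set 1455880_s_at, the brightest, read 2045, 1901, 1703 and 2352 in PKBα-/- DN3 cells, against 1675, 2285, 1852 and 1699 in PKBα+/+ DN3 cells. Probe set 1460320_at read 795, 828, 688 and 1013 in PKBα-/- DN3 cells, against 893, 773, 848 and 752 in PKBα+/+ DN3 cells. The groups overlapped in both, with log2 differences of 0.09 and 0.02. Probe set 1437006_x_at read 83.1, 148, 102 and 96.1 in PKBα-/- DN3 cells, against 87.7, 138, 97.9 and 112 in PKBα+/+ DN3 cells, a log2 difference of -0.04. The dim probe set 1430358_at read 29.3, 49.5, 21.9 and 73.9 in PKBα-/- DN3 cells, against 68.6, 53.5, 39.8 and 86.5 in PKBα+/+ DN3 cells. It was lower in PKBα-/- cells in 4 of 4 pairs, by -0.61 on the log2 scale, with overlapping groups. Averaged over its 5 probe sets on the log2 scale, Becn1 differed by -0.53 in DN3 cells. This average includes 1435219_x_at, the probe set that chose Becn1, at -2.10, so it is not a separate reading of the gene.

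In ISP8 cells, which the choice of Becn1 did not use, 1435219_x_at did not pass the test. It read 28.1, 76.8, 291 and 201 in PKBα-/- ISP8 cells, against 141, 74.3, 240.5 and 102 in PKBα+/+ ISP8 cells, and was lower in PKBα-/- cells in 1 of 4 pairs. The log2 change was -0.26 (SE 0.42, 95% interval -1.18 to 0.66, limma adjusted p = 0.932), and without pair 1 it was 0.43. In pair 1 the log2 difference was -2.33. The 4 pair differences had an SD of 1.44, and the SE of 0.42 is limma's moderated value. The genotype difference of this probe set was 1.84 higher in ISP8 than in DN3 cells on the log2 scale, given without a test since the DN3 arrays chose it.

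A different Becn1 probe set separated the genotypes in ISP8 cells. Probe set 1437006_x_at read 155, 174, 135 and 238 in PKBα-/- ISP8 cells, against 109, 84.2, 72.4 and 94.0 in PKBα+/+ ISP8 cells. All 4 PKBα-/- arrays were above all PKBα+/+ arrays, with means of 176 ± 44.9 in PKBα-/- cells and 89.8 ± 15.3 in PKBα+/+ cells (SD, n = 4 each). The log2 change was 0.95 (SE 0.25), and it did not pass the test over all probe sets (limma adjusted p = 0.617). The genotype difference was 0.99 higher in ISP8 than in DN3 cells on the log2 scale, given as a description since it rests on the DN3 genotype values.

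The brightest Becn1 probe sets showed small changes in ISP8 cells with overlapping groups. Probe set 1455880_s_at read 1951, 2100.1, 1850.3 and 2313 in PKBα-/- ISP8 cells, against 1761, 2445, 1849 and 2009 in PKBα+/+ ISP8 cells, a log2 change of 0.03 (95% interval -0.18 to 0.25, limma adjusted p = 0.967). Probe set 1460320_at read 821, 896, 818 and 1090.4 in PKBα-/- ISP8 cells, against 883, 879, 857 and 851 in PKBα+/+ ISP8 cells, a log2 change of 0.05 (95% interval -0.21 to 0.32, limma adjusted p = 0.958). Probe set 1430358_at read 84.2, 7.89, 27.2 and 57.6 in PKBα-/- ISP8 cells, against 53.4, 21.5, 16.1 and 65.9 in PKBα+/+ ISP8 cells, a log2 change of -0.06 (SE 0.58). The values of this dim probe set spread widely within both genotypes.

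**Figure D1:**
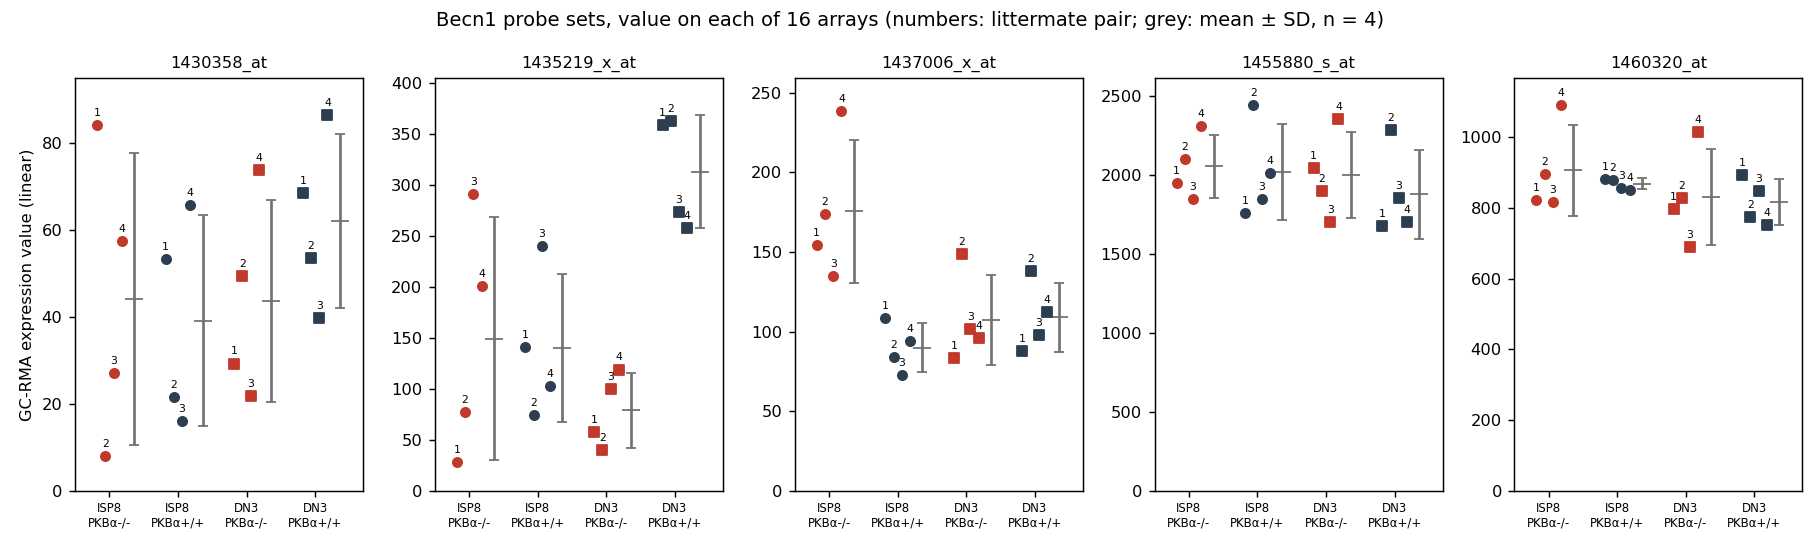
Deposited GC-RMA value (linear axis) of each of the 5 Becn1 probe sets on the PKBα-/- and PKBα+/+ arrays of ISP8 and DN3 cells. Numbered points are littermate pairs and grey marks the mean ± SD (n = 4). Of the 5, 1435219_x_at separates the genotypes in DN3 cells (39.4 to 119 in PKBα-/-, 258 to 363 in PKBα+/+) and 1437006_x_at in ISP8 cells (135 to 238 in PKBα-/-, 72.4 to 109 in PKBα+/+).

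The transcripts whose values ran closest to 1435219_x_at over the 16 arrays were Ttr (Pearson r = 0.78), Pcdhb4 (0.77), Spock2 (0.77), Adamtsl5 (0.77) and Rgs17 (0.76), from 25612 candidate probe sets. For 1455880_s_at they were Caap1 (0.88), Emc1 (0.87), Pogz (0.84), Atrx (0.84) and Hnrnpa2b1 (0.83). The lists did not share a gene. They describe likeness over arrays that include the DN3 genotype difference.

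Signals of other cells also differed with genotype in DN3 cells. The 4 measured erythroid markers (Hba-a1, Alas2, Slc4a1 and Klf1) summed to 62.6 to 129 in PKBα-/- DN3 cells against 75.8 to 134.6 in PKBα+/+ DN3 cells, lower in 4 of 4 pairs. The 4 measured B cell markers summed to 1093 to 1216 in PKBα-/- against 1185 to 1314 in PKBα+/+ DN3 cells, also lower in 4 of 4 pairs. This sum was mostly Cd79b, and the median log2 difference of the 3 markers above the filter was 0.0051. The 4 neutrophil markers S100a8, S100a9, Elane and Mpo summed to 32.5 to 389 in PKBα-/- against 86.8 to 1114 in PKBα+/+ DN3 cells, lower in 3 of 4 pairs. Markers of thymic epithelium and stroma (8) summed to 464 to 949 in PKBα-/- against 605 to 1075 in PKBα+/+ DN3 cells. That sum was lower in 3 of 4 pairs and was mostly Epcam. The 4 of them above the filter had a median log2 difference of -1.01. Krt8 read 6.42 to 17.5 in PKBα-/- against 29.9 to 69.7 in PKBα+/+ DN3 cells, without overlap. The dim Col1a1, Col3a1 and Pdgfra reached higher values in PKBα-/- DN3 cells. Alas2 stayed under 20 on every DN3 array. Of 4 globin probe sets that match several genes, 3 were far brighter. The brightest, of Hba-a1 and Hba-a2, read 7.73 to 2256 in PKBα-/- against 107 to 4475 in PKBα+/+ DN3 cells, and that of the beta globins read 10.8 to 1779 in PKBα-/- against 55.8 to 2422 in PKBα+/+ DN3 cells. The mean log2 differences of the 4 lay between -2.43 and -1.37, and the genotypes overlapped in each. In ISP8 cells the neutrophil sum was 38.1 to 145 in PKBα-/- against 128 to 2890 in PKBα+/+ cells. The sum of the 3 measured NK cell markers was 12198 to 19400 in PKBα-/- against 16586 to 21122 in PKBα+/+ ISP8 cells, lower in 4 of 4 pairs. It was nearly all Gzma, which was also bright in DN3 cells (11004 to 16389 in PKBα-/-, 11107 to 14859 in PKBα+/+). In ISP8 cells Klrd1 read 56.1 to 179 in PKBα-/- against 70.5 to 320 in PKBα+/+ cells. Ncr1 had its higher range in PKBα-/- cells, at 11.1 to 60.1 against 3.78 to 36.5. The sum is therefore a reading of Gzma and not of NK cells. The distance between the 3′ and 5′ actin probe sets, a measure of RNA integrity and labelling, differed by -0.17 log2 units in DN3 cells and by 0.24 in ISP8 cells (PKBα-/- minus PKBα+/+, above 0 in 4 of 4 ISP8 pairs). The part of these signals in the Becn1 values was not tested.

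Among the other autophagy genes, none showed a genotype change in ISP8 cells that passed the test. All 28 probe sets were above the filter, 0 passed limma's test, and 3 were under 0.05 before adjustment (1437006_x_at of Becn1, 1418179_at of Atg3 and 1439457_x_at of Atg12). Over the array, 5 of 34016 probe sets passed (0.0147%) and 2067 were under 0.05 before adjustment. The methods' t-test with its fold rule took 1 of the 28, which was 1437006_x_at, and after adjustment it took 0 of the whole table. Values higher in PKBα-/- cells without overlap were found for 2 of the 28 probe sets, against 1.63% of all those tested. The median log2 change was 0.03 over the 28 and 0.02 over all.

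The second of these was Ulk1, whose kinase begins autophagosome formation. Probe set 1448370_at read 949, 915, 914 and 1088 in PKBα-/- ISP8 cells, against 903, 902, 809 and 839 in PKBα+/+ ISP8 cells, a log2 change of 0.16 (SE 0.12, limma adjusted p = 0.853). In DN3 cells it read 1404, 1306, 1335 and 1251 in PKBα-/-, against 1425, 1317, 1769 and 1439 in PKBα+/+, a log2 difference of -0.16. The genotype difference was thus upward in 4 of 4 ISP8 pairs and downward in 4 of 4 DN3 pairs. The difference between them was 0.32 (SE 0.17, 95% interval -0.05 to 0.69) and did not pass (limma adjusted p = 0.968).

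Gabarap, an ATG8 family protein of the autophagosome membrane, was on average higher in PKBα-/- ISP8 and lower in PKBα-/- DN3 cells, with overlap in both. Probe set 1416937_at read 1727, 1635, 1799.9 and 1569 in PKBα-/- ISP8 cells, against 1819, 1123, 1449 and 1613 in PKBα+/+ ISP8 cells (log2 change 0.19, limma adjusted p = 0.846). It read 3324, 2288, 2459 and 2968 in PKBα-/- DN3 cells, against 3033, 2658, 3317 and 3085 in PKBα+/+ DN3 cells (log2 difference -0.14). The brightest probe sets of the remaining genes lay close together between genotypes. For Atg3, whose product conjugates LC3 to lipid, the log2 change was 0.03 in ISP8 and -0.12 in DN3 cells. For Sqstm1, which encodes the cargo receptor p62, 1450957_a_at changed by -0.01 in ISP8 and 0.13 in DN3 cells. Over all 28 probe sets the median DN3 difference was 0.04, against -0.01 over the array.

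The conjugation genes were likewise without a separation of the genotypes. Atg3 1448993_at read 3878, 3581, 4053 and 4268 in PKBα-/- ISP8 cells, against 3654, 3666, 4047 and 4087 in PKBα+/+ ISP8 cells. Atg12 1451747_a_at read 1987, 1893, 1979 and 1478 in PKBα-/- ISP8 cells, against 1823, 1767, 1717 and 1773 in PKBα+/+ ISP8 cells, where 3 of the 4 PKBα-/- arrays were higher than all PKBα+/+ arrays and the fourth lower. Atg5 1418236_s_at read 539.8, 529, 577 and 534 in PKBα-/- ISP8 cells, against 675, 518, 607 and 633 in PKBα+/+ ISP8 cells, a log2 change of -0.15 (limma adjusted p = 0.867). Its probe set 1415684_at was lower in PKBα-/- DN3 cells in 4 of 4 pairs, at 156, 304, 259.6 and 198 against 289.6, 346, 299 and 233 in PKBα+/+ DN3 cells, with overlap and a log2 difference of -0.38.

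The LC3 genes and Atg7 overlapped as well. Map1lc3a 1447883_x_at read 1053, 1069, 1157 and 1083 in PKBα-/- ISP8 cells, against 867, 1062, 1222 and 805 in PKBα+/+ ISP8 cells (log2 change 0.16, limma adjusted p = 0.853). Map1lc3b 1415929_at changed by 0.04 in ISP8 cells and differed by 0.02 in DN3 cells, and Atg7 1428612_at by 0.08 in ISP8 cells and 0.21 in DN3 cells. Dim probe sets gave the widest changes. Atg12 1439457_x_at read 68.2, 88.1, 26.5 and 41.2 in PKBα-/- ISP8 cells, against 51.7, 58.4, 8.09 and 2.89 in PKBα+/+ ISP8 cells, higher in 4 of 4 pairs with overlap (log2 change 1.63, SE 0.68, limma adjusted p = 0.803). Atg3 1418179_at read 49.4, 49.3, 53.7 and 51.8 in PKBα-/- ISP8 cells, against 23.1, 60.7, 8.59 and 14.8 in PKBα+/+ ISP8 cells (log2 change 1.31, SE 0.60, limma adjusted p = 0.817). Both were also higher on average in PKBα-/- DN3 cells, by 1.35 for Atg12 and 0.84 for Atg3, in 3 of 4 pairs each.

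**Figure D2:**
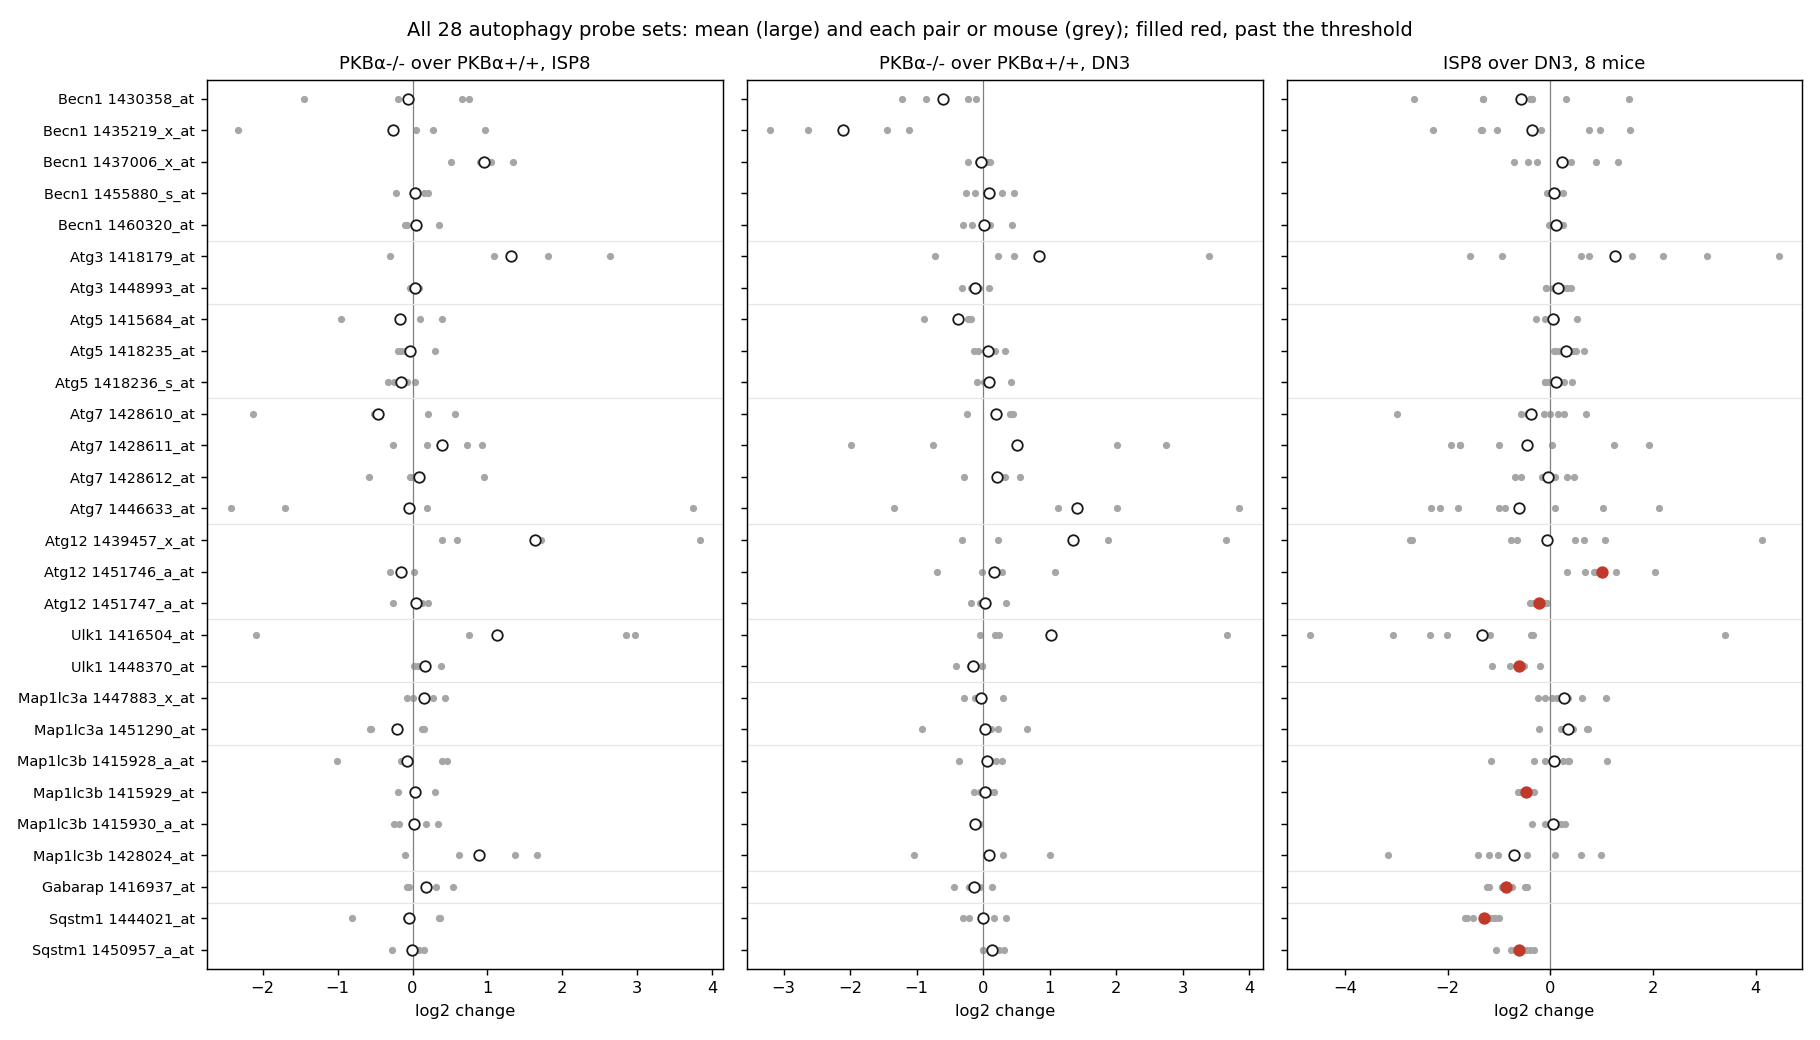
Log2 change of all 28 probe sets of the 10 genes between PKBα-/- and PKBα+/+ cells in ISP8 and DN3, and between ISP8 and DN3 cells over 8 mice, as the mean (large point, filled red where it passed) and each pair or mouse (grey). The DN3 genotype panel was not tested. Genotype changes cluster at 0 apart from a few dim probe sets and, of Becn1, 1435219_x_at (-2.10 in DN3 cells) and 1437006_x_at (0.95 in ISP8 cells). The stage changes include 7 that passed the test.

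The step from DN3 to ISP8 changed more of these genes than the genotype did. Ulk1, Gabarap and Sqstm1 fell in ISP8 cells, Map1lc3b fell in 1 of its 4 probe sets and not in the brightest, and Atg12 gave opposite changes in its probe sets. Of the 27 probe sets tested (1435219_x_at was not), 1 rose and 6 fell, and 10 were under 0.05 before adjustment. The step changed much of the array: of 32831 probe sets, 13941 passed (42.5%), with 17.6% higher and 24.9% lower in ISP8 cells. The 7 of 27 autophagy probe sets that passed are no greater a share than this background. The median log2 change was -0.06 for the autophagy probe sets and -0.07 for all. Quantile normalisation moved the median of all to 0.03, and all 7 calls kept their direction and passed under it. They also passed with each pair left out. Under quantile normalisation 12 autophagy probe sets passed, 6 higher and 6 lower in ISP8 cells. The added calls were all higher, so the balance of directions and the lack of other rises depended on the normalisation.

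Gabarap had the smallest adjusted p of the 10 genes. Its values in the 8 ISP8 arrays were 1123 at the lowest, 1624 at the median and 1819 at the highest, against 2288, 3001 and 3324 in the 8 DN3 arrays. The subsets did not overlap, and the ISP8 array was lower in 8 of 8 mice. The log2 change was -0.86 (SE 0.09, 95% interval -1.05 to -0.67, limma adjusted p = 5.87e-07), or 0.55-fold. Values lower in ISP8 cells without overlap were found for 9.92% of all probe sets and for 5 of the 27.

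Map1lc3b encodes LC3B, the protein most used to mark autophagosomes. Probe set 1415929_at read 1881, 2175 and 2437 in ISP8 cells (lowest, median and highest), against 2736, 3001 and 3302 in DN3 cells. It fell in 8 of 8 mice by -0.48 (SE 0.06, limma adjusted p = 5.87e-06), or 0.718-fold. The brighter probe set 1415928_a_at read 4621, 6526 and 11267 in ISP8 cells, against 5274, 6147 and 10243 in DN3 cells, with a log2 change of 0.07 (limma adjusted p = 0.757). The other probe sets 1415930_a_at and 1428024_at changed by 0.06 and -0.70 (limma adjusted p = 0.55 and 0.163). The fall of Map1lc3b therefore stood in 1 of its 4 probe sets. Map1lc3a, which encodes the related LC3A, read 805, 1066 and 1222 in ISP8 cells on 1447883_x_at, against 513, 923 and 1267 in DN3 cells (log2 change 0.27, limma adjusted p = 0.0912), and its dimmer probe set 1451290_at changed by 0.35 (limma adjusted p = 0.167).

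Ulk1 read 809, 909 and 1088 in ISP8 cells on 1448370_at (lowest, median and highest), against 1251, 1369 and 1769 in DN3 cells. The subsets did not overlap, and the log2 change was -0.62 (SE 0.09, limma adjusted p = 3.65e-05), lower in 8 of 8 mice. Its dim second probe set 1416504_at had a mean change of -1.32, short of the threshold (limma adjusted p = 0.124).

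Sqstm1 fell in both of its probe sets. Probe set 1450957_a_at read 434, 447 and 546 in ISP8 cells, against 608, 683 and 909 in DN3 cells, a log2 change of -0.61 (SE 0.10, limma adjusted p = 9.8e-05). Probe set 1444021_at read 30.3, 46.4 and 66.6 in ISP8 cells, against 85.8, 106 and 133 in DN3 cells, a log2 change of -1.29 (SE 0.22, limma adjusted p = 1.2e-04). Neither overlapped between the subsets, and their values correlated over the 16 arrays at r = 0.77 (Pearson, a description across arrays that differ by subset).

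**Figure D3:**
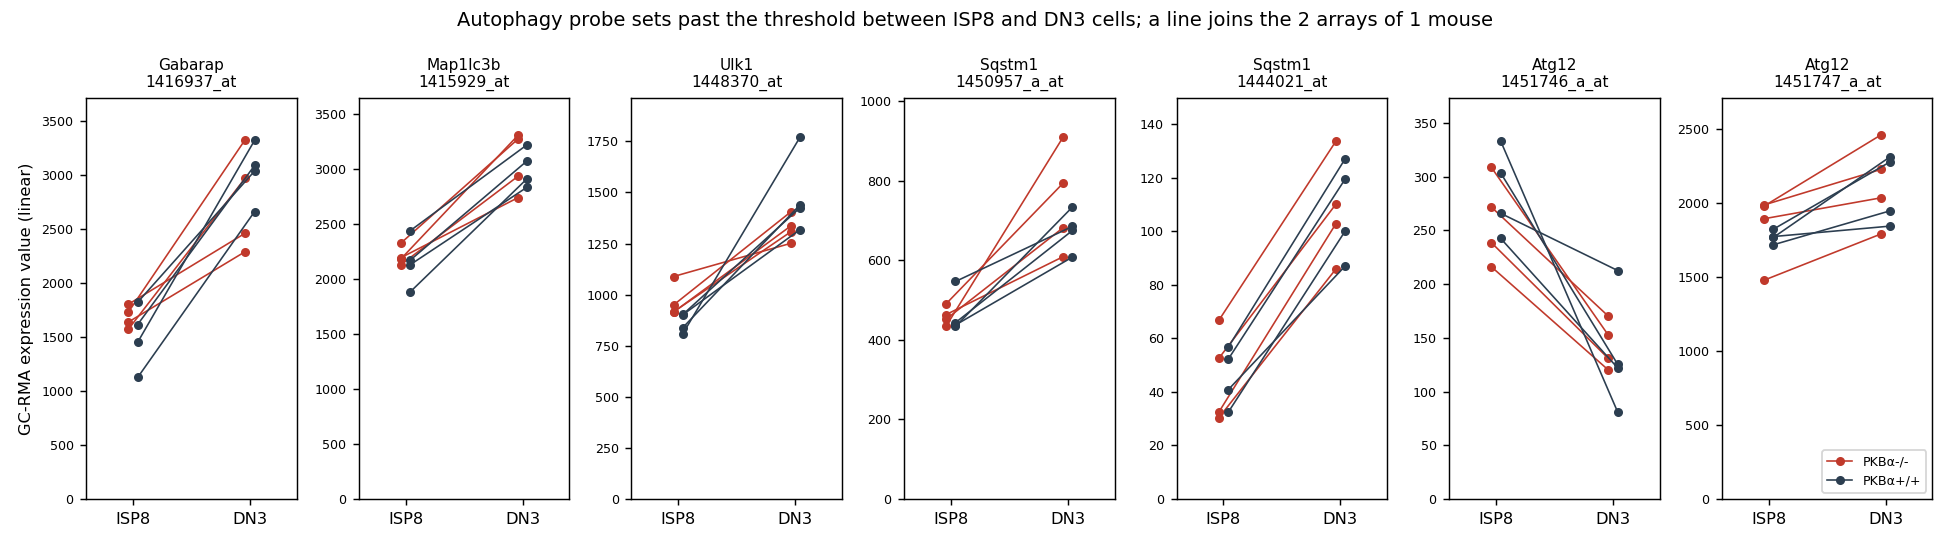
Deposited GC-RMA values (linear axis) of the 7 probe sets that passed the stage test, with a line for each of the 8 mice from its ISP8 array to its DN3 array, coloured by genotype. ISP8 lies below DN3 in every mouse for Gabarap, Map1lc3b, Ulk1, Sqstm1 and Atg12 1451747_a_at, and above it for Atg12 1451746_a_at.

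The conjugation genes changed less uniformly. Atg12 encodes the ubiquitin-like protein that is joined to ATG5. Its probe set 1451746_a_at read 216, 269 and 333 in ISP8 cells, against 80.8, 128 and 213 in DN3 cells, and rose by 1.01 (SE 0.17, limma adjusted p = 1.5e-04) in 8 of 8 mice. Its brighter probe set 1451747_a_at read 1478, 1798 and 1987 in ISP8 cells, against 1791, 2131 and 2460.1 in DN3 cells, and fell by 0.23 on the log2 scale (SE 0.07, limma adjusted p = 0.0102), also in 8 of 8 mice. The direction of the whole Atg12 transcript pool is therefore not given by these values. Only the first of these was free of overlap, and 6.52% of all probe sets were higher in ISP8 cells without overlap.

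Atg3, Atg5 and Atg7 did not pass. Atg3 read 3581, 3962 and 4268 in ISP8 cells on 1448993_at, against 3114, 3495 and 4275 in DN3 cells (log2 change 0.15, limma adjusted p = 0.0823). Atg5, the partner of ATG12, read 518, 558 and 675 in ISP8 cells on 1418236_s_at, against 429.8, 569.7 and 591 in DN3 cells (0.11, limma adjusted p = 0.398). Atg7, the enzyme that activates both ubiquitin-like proteins, read 105, 208 and 235 in ISP8 cells on 1428612_at, against 155, 196 and 251 in DN3 cells (-0.05, limma adjusted p = 0.828). These 3 genes overlapped between the subsets. Of their other probe sets, Atg5 1418235_at was higher in ISP8 cells in 8 of 8 mice, by 0.30 on the log2 scale (limma adjusted p = 0.0637), Atg5 1415684_at changed by 0.06, and the dim Atg3 1418179_at by 1.27 (limma adjusted p = 0.126). The remaining Atg7 probe sets changed by -0.38 (1428610_at), -0.46 (1428611_at) and -0.62 (1446633_at), and Atg12 1439457_x_at by -0.07, none past the threshold.

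The testable Becn1 probe sets did not pass at the stage step. The brightest, 1455880_s_at, changed by 0.07 (limma adjusted p = 0.396) and 1460320_at by 0.11 (limma adjusted p = 0.293). Probe set 1437006_x_at changed by 0.22 and 1430358_at by -0.57 (limma adjusted p = 0.474 and 0.287). Probe set 1435219_x_at, described only, was lower in ISP8 than in DN3 cells by -1.29 in PKBα+/+ mice without overlap, and differed by 0.56 in PKBα-/- mice, where it was higher in 3 of 4.

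Of the 7 stage changes, 6 passed within each genotype as well, and the fall of Atg12 1451747_a_at passed in neither (limma adjusted p = 0.122 in PKBα-/- and 0.136 in PKBα+/+ mice). In PKBα-/- mice 1 autophagy probe set rose and 5 fell, where 28.1% of 34038 probe sets on the array passed (11.9% higher and 16.2% lower). In PKBα+/+ mice 1 rose and 5 fell, where 28.9% of 34506 passed (11.6% higher and 17.3% lower). Gabarap changed by -0.70 in PKBα-/- mice (limma adjusted p = 2.6e-04) and by -1.03 in PKBα+/+ mice (limma adjusted p = 2.0e-05). Ulk1 changed by -0.46 in PKBα-/- mice (limma adjusted p = 0.0091) and by -0.78 in PKBα+/+ mice (limma adjusted p = 6.3e-04). Without pair 3 the PKBα-/- value of Ulk1 no longer passed (limma adjusted p = 0.0529). The difference in stage change, PKBα-/- minus PKBα+/+, was 0.33 for Gabarap (SE 0.16, 95% interval -0.02 to 0.68) and 0.32 for Ulk1, and neither passed (limma adjusted p = 0.968 each).

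Map1lc3b and Sqstm1 fell in both genotypes. Map1lc3b 1415929_at changed by -0.47 in PKBα-/- and -0.49 in PKBα+/+ mice. Sqstm1 1450957_a_at changed by -0.69 in PKBα-/- and -0.54 in PKBα+/+ mice, and 1444021_at by -1.31 in PKBα-/- and -1.27 in PKBα+/+ mice. The PKBα+/+ calls of Sqstm1 were lost without pair 2, and that of 1450957_a_at also without pair 3 and under quantile normalisation. Atg12 1451746_a_at rose by 0.85 in PKBα-/- and by 1.16 in PKBα+/+ mice. Becn1 1437006_x_at was higher in ISP8 than in DN3 cells in 4 of 4 PKBα-/- mice, by 0.71 on the log2 scale, short of the threshold (limma adjusted p = 0.0596), and changed by -0.27 in PKBα+/+ mice. None of the 32831 probe sets passed limma's test of a genotype effect that differed between the subsets (0.0%, with 1495 under 0.05 before adjustment).

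Other signals moved with the stage as well. The 7 macrophage and dendritic cell markers summed to 298 to 593 in ISP8 cells against 662 to 1374 in DN3 cells, and the B cell marker Cd79b read 183 to 353 in ISP8 cells against 992 to 1270 in DN3 cells. Of the other B cell markers, Ms4a1 was higher, at 38.0 to 142 in ISP8 cells against 1.55 to 52.0 in DN3 cells, and the median log2 change of the 4 measured B cell markers was 1.01. Among the macrophage and dendritic cell markers only Lyz2 was free of overlap, at 8.20 to 291 in ISP8 cells against 295 to 850 in DN3 cells. Epcam read 33.3 to 132 in ISP8 cells against 332 to 952 in DN3 cells. The NK cell marker Klrd1 went the other way, at 56.1 to 320 in ISP8 cells against 2.28 to 37.9 in DN3 cells. The actin 3′ to 5′ distance differed by -0.44 log2 units (ISP8 minus DN3, mean of the mice), with a difference above 0 in 1 of 8 mice. Their part in the stage changes was not tested.

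A wider list of 40 autophagy genes, sorted by role, had 38 on the array (Optn and Bnip3l were without a usable probe set). With the brightest probe set per gene, 5 rose and 18 fell in ISP8 cells, and 15 did not pass. Over the array 42.5% passed, but bright probe sets passed more often: of the 20196 above the filter at 100, 12626 did (5373 higher and 7253 lower). The 23 of 38 are near that background. The median log2 change was -0.24, against -0.07 for all probe sets, and under quantile normalisation 7 rose and 14 fell with a median of -0.11. Between genotypes 0 of 38 passed limma's test in either subset (smallest adjusted p = 0.753 in ISP8 cells and 0.322 in DN3 cells).

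The counts by role are given as a description. They use the brightest probe set per gene, so the nearer background is the 20196 probe sets above 100, of which 7253 fell and 5373 rose. Of all probe sets 24.9% fell. Of the lipid kinase complex that holds Beclin 1, 4 of 7 genes fell and none rose. Atg14, the subunit that sends this complex to the forming autophagosome, averaged 234 ± 35 in ISP8 cells against 585 ± 80.7 in DN3 cells (SD, n = 8 each), a log2 change of -1.32 (SE 0.12, limma adjusted p = 1.3e-07). Of the initiation genes beside Ulk1, 3 of 4 fell, among them Rb1cc1, the scaffold of the ULK complex, by 0.52 on the log2 scale. Of the genes for ATG9, ATG2 and the WIPI proteins, 2 of 6 fell, with Wdr45, a phosphoinositide reader, at -0.88 (limma adjusted p = 2.8e-07).

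The later steps were mixed. Of the conjugation genes, 2 rose and 2 fell of 7. The protease Atg4c, which trims ATG8 proteins, averaged 44.0 ± 28.4 in ISP8 cells against 199 ± 41.2 in DN3 cells (log2 change -2.71, SE 0.48, limma adjusted p = 1.8e-04), while Atg4a rose by 0.59. Gabarapl1, a relative of Gabarap, changed by -0.71. Among receptors 1 rose and 3 fell of 5, with Calcoco1 at 52.9 ± 16.7 in ISP8 cells against 189 ± 54.2 in DN3 cells (log2 change -1.85, limma adjusted p = 6.2e-06) and Nbr1 at -0.35. Among the fusion and lysosome genes 2 rose and 3 fell of 7. Stx17, the syntaxin of the autophagosome that drives its fusion with the lysosome, averaged 605 ± 68.3 in ISP8 cells against 1376 ± 259 in DN3 cells (log2 change -1.17, SE 0.09, limma adjusted p = 1.3e-08). Its SNARE partner Vamp8 changed by -0.63, while the late endosome GTPase Rab7 rose by 0.35 and Tfeb, which encodes a transcription factor of lysosomal genes, by 1.41.

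**Figure D4:**
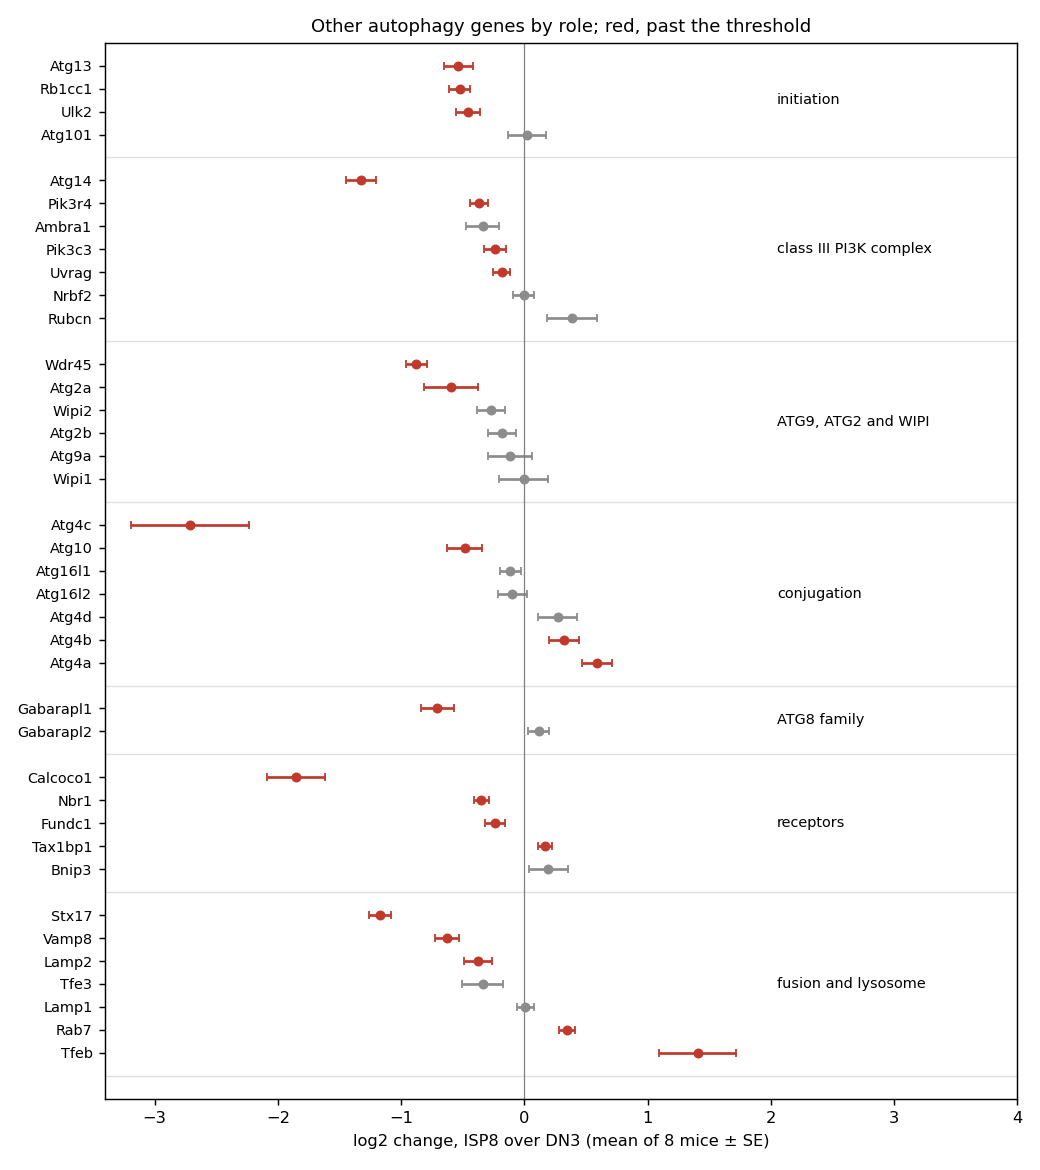
Log2 change between ISP8 and DN3 cells over 8 mice for the 38 measured genes of the wider autophagy list, grouped by role, with bars for the SE and red points for those that passed. Most red points lie below 0 (18 fell and 5 rose), and Atg4c at -2.71 lies farthest from 0.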

How the data were processed

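RNA of sorted DN3 and ISP8 thymocytes was amplified in 2 rounds, labelled and hybridised to Affymetrix mouse genome 430 2.0 arrays. The deposited values are linear intensities that the authors estimated by GC-RMA in Refiner 3.1 (Genedata), with no further scaling here. Of 45101 probe sets, 34958 had 1 gene symbol, 932 several and 9211 none. Values were taken as log2 and tested with limma 3.58.1 (lmFit, eBayes with trend) under R 4.3.3, with Benjamini-Hochberg adjustment over all probe sets tested and a threshold of 0.05. Genotype was fitted with the littermate pair as a block, and stage with the mouse as a block. The difference of genotype effects between subsets was fitted with the mouse as a block and a subset by genotype term. That fit did not use the pairing of littermates. A probe set was tested where it exceeded 20 in at least 1 array of a pair in 3 pairs (for stage over both genotypes, in 6 of 8 mice). Littermates deviated together more than other mice (r = 0.337 to 0.400 in DN3 cells against -0.247 to 0.0708 for other pairs, and 0.0807 to 0.194 against -0.183 to 0.0661 in ISP8 cells). The code was tested on simulated data. Named were all Becn1 probe sets, the brightest probe set of each gene and each probe set that passed. For the wider list the brightest probe set per gene was taken. The genes and lists were chosen with earlier results of these data known. Alternatives were the filter, 20 added before log2, quantile normalisation, robust moderation, no block, the mean over a gene's probe sets, the methods' t-test and leaving out a pair. The number of arrays limits the precision.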

Additional observations from a re-analysis of the deposited data

Results flagged for a closer look

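Of 68 groups of 4 arrays among the described probe sets, 7 held an array far from the other 3 of its group, and chance gives about 1 in 20. Atg5 1418236_s_at read 471 in the PKBα-/- DN3 array of pair 1, with the others at 572 to 591. Atg7 1428612_at stood apart in 3 groups, at 251 in the PKBα-/- DN3 array of pair 3 (others 194 to 199.9), at 156 in the PKBα-/- ISP8 array of pair 3 (others 203 to 213) and at 105 in the PKBα+/+ ISP8 array of pair 4 (others 207 to 235). Atg12 1451747_a_at read 1478 in the PKBα-/- ISP8 array of pair 4 (others 1893 to 1987). Map1lc3b 1415928_a_at read 10243 in the PKBα+/+ DN3 array of pair 2 (others 5274 to 5802). Sqstm1 1450957_a_at read 546 in the PKBα+/+ ISP8 array of pair 1 (others 434 to 443).

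Ulk1 1448370_at differed between the genotypes in opposite directions in the subsets, upward in 4 of 4 ISP8 pairs and downward in 4 of 4 DN3 pairs. The difference of the genotype effects was 0.32 on the log2 scale and did not pass limma's test (adjusted p = 0.968).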

How the results depend on the processing

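The 7 stage calls held under every alternative that tests probe sets singly. Averaged over probe sets of a gene, Atg12 did not pass (change 0.24, adjusted p = 0.380), and Gabarap, Ulk1, Sqstm1 and Map1lc3b did. Under quantile normalisation 12 autophagy probe sets passed, 6 higher and 6 lower in ISP8 cells, against 1 and 6 in the main fit. Over the array 7022 probe sets were then higher and 6672 lower, against 5770 and 8171. With a pair left out 7 to 11 autophagy probe sets passed. Without the block for the replicate pairs, 7 passed. The number of all probe sets past the genotype test was 13 in DN3 cells, and became 8 without a filter, 27 with 20 added, 1 without the block, 458 by the methods' t-test with its fold rule and 0 by that test after adjustment, and 11 to 45 with a pair left out. In ISP8 cells it was 5, and became 3 without a filter, 1 with the filter at 100, 2 without the block, 521 by the methods' t-test (1 of them an autophagy probe set, Becn1 1437006_x_at) and 0 after adjustment, and 1 to 11 with a pair left out. Few pairs limit these counts, and dim probe sets limit the filter.

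Small ISP8 genotype changes turned direction with a pair left out: Becn1 1430358_at ranged over -0.33 to 0.41 (0.0438 with 20 added), 1435219_x_at over -0.67 to 0.43, 1455880_s_at over -0.0233 to 0.12 and 1460320_at over -0.0484 to 0.11. The ranges were -0.20 to 0.31 for Atg7 1428612_at, -0.0129 to 0.14 for Atg12 1451747_a_at, -0.26 to 0.23 for Map1lc3b 1415928_a_at, -0.0487 to 0.12 for Map1lc3b 1415929_at, -0.18 to 0.21 for Sqstm1 1444021_at and -0.0626 to 0.0778 for Sqstm1 1450957_a_at. At the stage step Atg7 1428612_at ranged over -0.13 to 0.0135 (0.20 under quantile normalisation) and Map1lc3b 1415928_a_at over -0.0708 to 0.34 (-0.0795 under quantile normalisation). Averaged over the probe sets of each gene, the stage change was 0.24 for Atg12 and -0.26 for Map1lc3b, and the ISP8 genotype change was -0.0073 for Atg7, -0.0242 for Map1lc3a and 0.22 for Map1lc3b. The cause was not tested.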
